A study of Mus musculus with 7 samples.

Results

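Cytosolic ribosomal protein genes were examined in the epididymal fat pad, a visceral white adipose depot of male mice. The genes were taken by name: symbols Rpl or Rps followed by a number with an optional a, l, x or y, together with Rplp0, Rplp1, Rplp2 and Rpsa, without pseudogenes and S6 kinases. A probe set counted only if the platform table pairs it with exactly 1 gene symbol. This gave 59 genes of the 19938 with such a probe set, and 215 probe sets. Each gene was described by its probe set with the highest mean over the 7 libraries. They comprise 34 genes of the large subunit, 22 of the small subunit and the 3 stalk genes Rplp0, Rplp1 and Rplp2. Rpl13a, a common reference gene, has no probe set of its own symbol alone and is not among them.

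The samples were 4 wild type libraries and 3 aP2-XBP1 transgenic libraries, all from males on the C57Bl/6J background, chow-fed and 17 weeks old. The transgene expresses XBP1, which activates genes in the unfolded protein response, from the aP2 promoter. That is the promoter of Fabp4, a fatty acid carrier of adipocytes that macrophages also express. Each sample has 1 Affymetrix Mouse Gene 1.0 ST array, and values are log2 expression after RMA, in which background is removed, arrays are brought to a common distribution and probes are combined per probe set. Whether the numbered replicates are different animals is not said in the labels. The p-values set the difference between genotypes against the spread among these samples, which may be partly technical and not between animals.

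A cytosolic ribosome joins a small subunit, which reads the mRNA, to a large subunit, which forms the peptide bond. Its proteins are needed in near-equal amounts, and their mRNAs are among the most abundant of a cell. Most of these mRNAs start with a C followed by a run of pyrimidines, the 5′ terminal oligopyrimidine (TOP) motif, through which mTOR and LARP1 control their translation. Ribosomal protein genes also have many processed pseudogenes, so array probes for them can bind copies from several loci.

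Start regions are shown for some of the genes toward either end of the range of differences between genotypes, and for Rps6, Rps18 and Rpl38, which are described below. For Rps21 and Rps27l the first of the listed starts is shown. They were read from RefSeq promoter windows of build GRCm38.p6, in which 47 of the 59 genes were found with 56 windows. Each line gives the 15 bases before and the 15 bases from the annotated start, and capitals mark the longest pyrimidine run within 10 bases of it.
Rps21 (chr2:180257364-180257393, + strand): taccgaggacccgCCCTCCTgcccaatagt
Rps9 (chr7:3704026-3704055, + strand): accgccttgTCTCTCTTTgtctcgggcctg
Rpl38 (chr11:114668565-114668594, + strand): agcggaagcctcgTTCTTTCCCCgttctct
Rps18 (chr17:33955651-33955680, - strand): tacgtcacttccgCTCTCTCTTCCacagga
Rps6 (chr4:86857353-86857382, - strand): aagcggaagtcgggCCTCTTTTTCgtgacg
Rps15a (chr7:118116133-118116162, - strand): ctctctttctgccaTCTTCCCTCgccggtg
Rps27l (chr9:66946071-66946100, + strand): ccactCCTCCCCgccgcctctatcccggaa
Rplp2 (chr7:141447636-141447665, + strand): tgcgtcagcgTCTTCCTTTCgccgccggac
Rpl12 (chr2:32961697-32961726, + strand): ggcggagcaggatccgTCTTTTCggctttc
Rpl39l (chr16:10170213-10170242, + strand): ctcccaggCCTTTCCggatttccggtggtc
Rpl10l (chr12:66284387-66284416, - strand): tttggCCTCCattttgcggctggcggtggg

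The run was 10 bases long in Rpl38, Rps6 and Rplp2 and 11 in Rps18, and 5 in Rpl10l, a paralog known from the testis. A C at the start with at least 5 pyrimidines in a row from it stood in 17.9% of the 56 windows, against 2.51% of all 32851 promoter windows. At least 6 pyrimidines in a row within 10 bases of the start stood in 41.1%, against 20.2%. An annotated start can lie some bases away from the start in use, and the motif is then missed. Of fixed motifs searched on both strands over the 300 bases, CCGGAAG, the core bound by ETS factors, was in 33.9% of the windows and in 8.86% of all. CACTTCC was in 19.6% against 11.0%, GGGCGG, the Sp1 box, in 55.4% against 35.7%, CACGTG in 12.5% against 7.15%, TATAA in 14 of the 56 against 24.9% of all, and AAGATGGC in 3.57% against 2.75%. Among windows of protein-coding genes alone the shares were 11.6% for CCGGAAG, 12.0% for CACTTCC and 46.2% for GGGCGG. They were 7.84% for CACGTG, 21.9% for TATAA and 3.05% for AAGATGGC. Windows of the same gene can overlap, and those with CACGTG came from 5 of the 47 genes. CACTTCC can overlap CCGGAAG by its last bases. The unfolded protein response element TGACGTGG and the ER stress response element were in 0 of the 56 windows, and in 0.676% and 0.119% of all, which says only that these letters are not in those windows.

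The 250 bases before the start are shown for Rpl38 and Rplp2, which both carry CCGGAAG and differed in opposite directions. Capitals mark every match of the motifs named above. Genes with a C start and a run of at least 5 had a median log2 difference, transgenic minus wild type, of -0.10 over 10 genes, and the other 37 genes with a window had -0.11.
Rpl38 (chr11:114668330-114668579, + strand): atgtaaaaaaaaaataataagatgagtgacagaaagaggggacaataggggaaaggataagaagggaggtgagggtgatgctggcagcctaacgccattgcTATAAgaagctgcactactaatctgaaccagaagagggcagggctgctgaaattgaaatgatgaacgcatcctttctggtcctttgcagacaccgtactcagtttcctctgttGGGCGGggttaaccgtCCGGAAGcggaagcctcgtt
Rplp2 (chr7:141447401-141447650, + strand): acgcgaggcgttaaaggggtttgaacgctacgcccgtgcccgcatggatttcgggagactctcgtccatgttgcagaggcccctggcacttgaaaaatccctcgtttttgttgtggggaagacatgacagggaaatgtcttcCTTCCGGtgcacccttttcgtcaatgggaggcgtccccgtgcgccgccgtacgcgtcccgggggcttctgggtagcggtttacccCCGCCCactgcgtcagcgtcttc

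Before the results, the libraries need a description, because they do not divide by genotype alone. Genes known from the epididymis, with 11 of 13 listed genes measured, had a mean log2 value of 4.57, 4.65 and 4.86 in wild type replicates 1, 3 and 4. Wild type replicate 2 had 2.66, and the transgenic libraries had 2.71 to 3.09. Serpina1f, Spink8 and Defb42 made this difference. Serpina1f read 10.70, 10.84 and 11.50 in those 3 libraries and 2.74 to 3.73 in the other 4, while 6 of the 11 genes had a higher transgenic mean and the list's median difference was 0.05. The 11 smooth muscle genes read 8.62, 8.65 and 9.16 in the same 3 wild type libraries, with 6.76 for wild type replicate 2 and a range of 6.23 to 6.85 with the transgene. The 9 measured adipocyte genes, Adipoq and Plin1 among them, averaged 10.40, 11.11, 10.65 and 10.80 in wild type replicates 1 to 4 and 11.08 to 11.21 in transgenic fat. All 9 had a higher transgenic mean (median difference 0.41), and 0 passed limma's test. At an unadjusted p under 0.05, 6 were higher, against 4.82% of all probe sets and 268 of the 1832 with a mean above 8. Xbp1 itself read 9.03 ± 0.13 (SD, n = 4) in wild type fat against 9.80 ± 0.17 (SD, n = 3) with the transgene, without overlap. It did not pass either (limma adjusted p = 0.622). Array medians were 4.03 to 4.04 for wild type arrays and 3.99 to 4.01 for transgenic ones, so a small offset goes with genotype. In whole tissue, fewer cells of a type and less RNA per cell cannot be told apart.

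Most ribosomal protein genes read slightly lower in transgenic fat, and 0 of the 59 passed limma's test at an adjusted p of 0.05 over all 21789 probe sets, where the share called was also 0.0%. The mean was lower in transgenic fat for 51 of the 59 genes and higher for 8, against 46.4% of all probe sets lower and 53.6% higher. With arrays shifted to a common median it was lower for 46 and higher for 13, against 32.9% of all probe sets lower. Their median log2 difference, transgenic minus wild type, was -0.11, or 7.4% lower, against a median of 0.01 over all probe sets. Single genes ran from -0.27 (Rpl39l) to 0.17 (Rpl12), with standard errors between 0.04 and 0.31. No adjusted p fell under 0.622. Without adjustment, 6 genes were lower and 1 was higher at a p under 0.05, against 3.12% and 4.82% of all probe sets. The groups did not overlap for 8 genes lower in transgenic fat and for 1 higher, against 2.44% and 3.38% of all probe sets. The gaps were narrow. The lowest wild type and highest transgenic library read 10.54 and 10.50 for Rpl19, and 10.6002 and 10.5984 for Rps7. Array medians also differed, at 4.03 to 4.04 in wild type and 3.99 to 4.01 in transgenic arrays. Overlap was not counted with arrays at a common median.

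**Figure D1:**
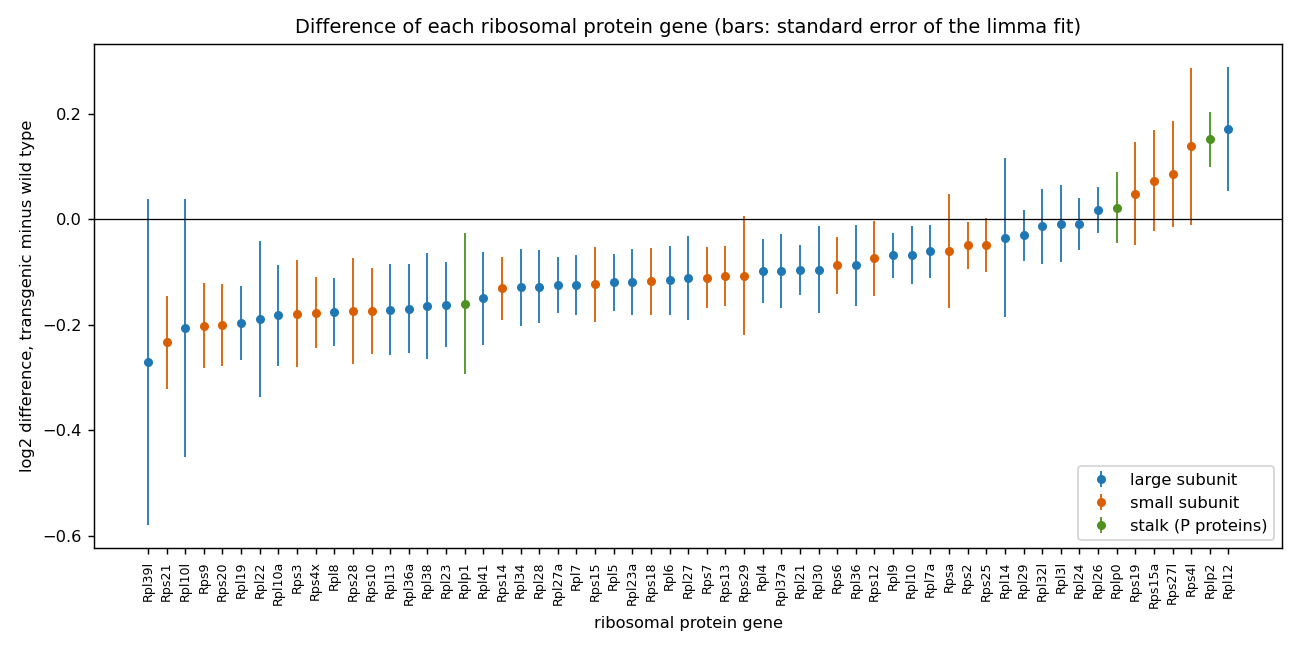
Log2 difference, transgenic (n = 3) minus wild type (n = 4), for each of the 59 ribosomal protein genes in order of size, coloured by subunit. Points are the fitted differences and bars their standard errors, and 51 points lie below 0.

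The lower means lay mostly in bright probe sets. A mean log2 value of 8, a limit chosen after the values were seen, divides the genes into 41 above and 18 below. Rpl7a (mean 8.41) and Rps28 (7.78) lie nearest to it on either side. Of the 41, the mean was lower in transgenic fat for 40, with Rplp0 as the exception, and the median difference was -0.12. Of all 1832 probe sets above the same level, 45.6% were lower and the median was 0.02. Groups did not overlap for 7 of the 41, all lower, against 5.95% of those 1832, and 6 of the 41 were lower at an unadjusted p under 0.05, against 5.79%. Among the 18 others 11 were lower and 7 higher, and the median was -0.02. Probe set levels depend on the probes as well as on the mRNA, so a dim probe set does not show that a gene is weakly expressed.

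**Figure D2:**
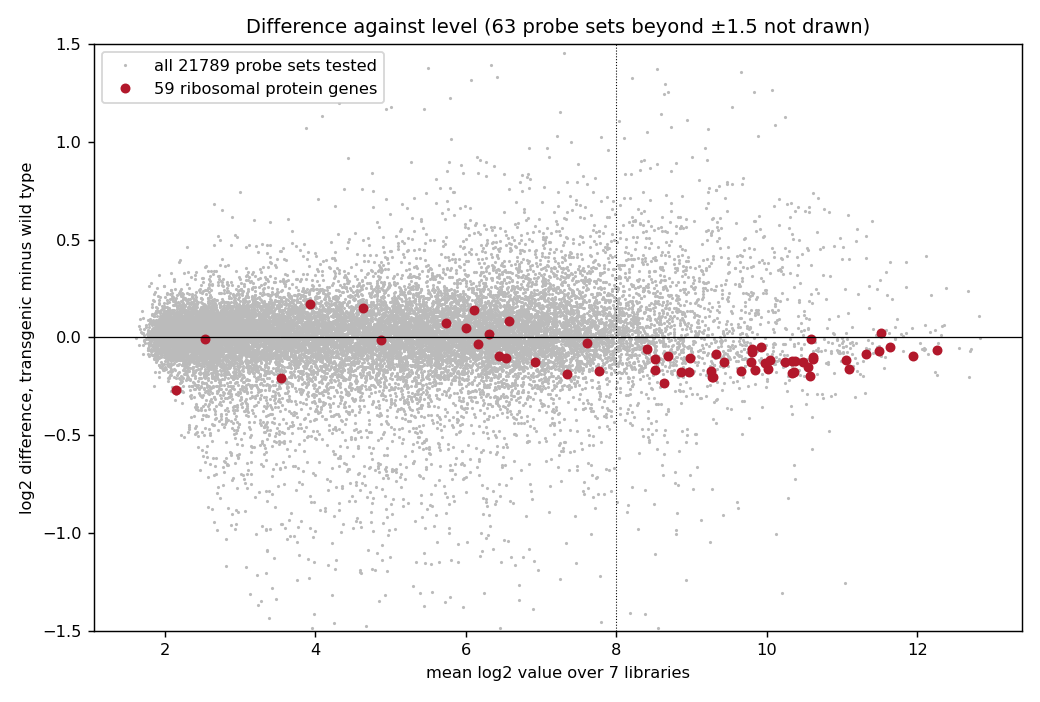
Log2 difference, transgenic minus wild type, against the mean log2 value over the 7 libraries, for all 21789 probe sets tested (grey) and the 59 ribosomal protein genes (red). Right of the dotted line at 8, 40 of the 41 red points lie below 0, in a narrow band from -0.23 to 0.02.

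Of the 22 small subunit genes 18 had a lower transgenic mean, and the median difference was -0.11. At an unadjusted p under 0.05, 4 were lower, against 3.12% of all probe sets, a count that rests on single libraries as given below. Rps21, a small protein of the 40S subunit, read 8.81, 8.63, 8.68 and 8.82 in wild type replicates 1 to 4 and 8.63, 8.54 and 8.33 in transgenic replicates 1 to 3. The difference was -0.23 (SE 0.09, limma adjusted p = 0.622), and transgenic replicate 1 reached the lowest wild type library. Rps9 read 9.39, 9.21, 9.38 and 9.45 in wild type against 9.24, 9.20 and 9.03, a difference of -0.20 (SE 0.08). Rps20 read 9.47, 9.24, 9.48 and 9.31 against 9.26, 9.18 and 9.09, also -0.20 (SE 0.08). In both genes wild type replicate 2 lay within the transgenic range. The other probe set of Rps9, with the same mean of 9.27 to 2 decimals, differed by -0.13 (SE 0.10).

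Rps4x, the X-linked form of the S4 protein, did not overlap between groups. It read 8.99, 8.87, 8.98 and 8.89 in wild type and 8.86, 8.63 and 8.77 in transgenic fat, a difference of -0.18 (SE 0.07, limma adjusted p = 0.622), with wild type replicate 2 only just above transgenic replicate 1. Rps7 and Rps13 did not overlap either, with differences of -0.11 each. Rps3, a protein of the mRNA entry channel, differed by -0.18 and overlapped. Rps4x, Rps7, Rps13 and Rps3 lie outside the naming rule and were chosen after their values were seen, as were the other such genes named here (Rps28, Rpl5, Rpl7, Rpl7a, Rpl8, Rpl23, Rpl38, Rplp1 and Rpsa).

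Rps6, the substrate of the S6 kinases downstream of mTOR, differed little. It read 11.27, 11.30, 11.46 and 11.36 in wild type and 11.24, 11.28 and 11.27 in transgenic fat, a difference of -0.09 (SE 0.05). Rps2 differed by -0.05 (SE 0.04) over values of 11.57 to 11.74. Rps19, whose human counterpart is mutated in Diamond-Blackfan anaemia, and Rps15a had higher transgenic means by 0.05 and 0.07, with overlapping groups.

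Large subunit genes were lower nearly throughout. Of the 34, 32 had a lower transgenic mean, and the median difference was -0.12. At an unadjusted p under 0.05, 2 were lower (5.88%), against 3.12% of all probe sets and 5.79% of those with a mean above 8. Rpl19 read 10.82, 10.54, 10.62 and 10.64 in wild type against 10.43, 10.50 and 10.44 in transgenic fat, a difference of -0.20 (SE 0.07, limma adjusted p = 0.622). These values are from the brightest of its 7 probe sets. The others had smaller differences, from -0.14 to -0.11, with overlapping groups. On the brightest alone, every transgenic library was below every wild type library. Rpl8, a protein near the peptidyl transferase centre, did not overlap either, with 10.43, 10.35, 10.56 and 10.38 against 10.31, 10.27 and 10.18. Its difference was -0.18 (SE 0.06). Groups also did not overlap for Rpl23 (-0.16), Rpl7 (-0.12) and Rpl5 (-0.12), the last a partner of 5S rRNA and of Mdm2.

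Other large subunit genes overlapped. Rpl10a differed by -0.18 (SE 0.10), and its 10.25 in wild type replicate 2 equalled transgenic replicate 2 to 2 decimals. Rpl22 differed by -0.19 (SE 0.15) and was among the most variable, with 7.73 in wild type replicate 3 against 7.20 in wild type replicate 2. Rpl14 was also variable, from 5.78 in transgenic replicate 3 to 6.36 in wild type replicate 4, with a difference of -0.03. The bright probe sets of Rpl10, Rpl21 and Rpl9 differed by -0.07 (SE 0.05), -0.10 (SE 0.05) and -0.07 (SE 0.04). Rpl24 and Rpl26 differed by -0.01 and 0.02, with SDs over the libraries of 0.05 and 0.04. Rpl12, whose single probe set is dim, read 4.17, 3.67, 3.81 and 3.78 in wild type and 4.05, 3.98 and 4.05 in transgenic fat, a difference of 0.17 (SE 0.12) in which wild type replicate 1 lay above the transgenic libraries.

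The stalk proteins, which recruit the elongation factors to the large subunit, did not share a direction. Rplp1 read 11.42, 10.89, 11.22 and 11.11 in wild type and 11.13, 11.01 and 10.86 in transgenic fat, a difference of -0.16 (SE 0.13). Rplp0, the scaffold of the stalk and a common reference gene under the name 36B4, read 11.64, 11.45, 11.52 and 11.43 against 11.60, 11.55 and 11.45, a difference of 0.02 (SE 0.07). Rplp2 read 4.57, 4.60, 4.59 and 4.51 in wild type and 4.73, 4.63 and 4.80 in transgenic fat, a difference of 0.15 (SE 0.05, limma adjusted p = 0.622). It was the 1 gene of the 59 whose transgenic libraries all lay above all wild type libraries, on a dim probe set. It was also the 1 gene higher at an unadjusted p under 0.05.

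Most of the genes were high or low in the same libraries. The 41 genes above a mean of 8 averaged 0.13 and 0.10 above their own 7-library means in wild type replicates 1 and 3, and 0.01 above in wild type replicate 4. Their average was -0.03 in wild type replicate 2. It was -0.02, -0.06 and -0.13 in transgenic replicates 1, 2 and 3. Wild type replicate 2 thus lay between transgenic replicates 1 and 2. Of the 59 genes, 28 had their highest value in wild type replicate 1, 20 in wild type replicate 3 and 8 in wild type replicate 4, and 32 had their lowest value in transgenic replicate 3. Large and small subunit genes above 8 had like profiles, both at 0.13 for wild type replicate 1, and at -0.12 and -0.14 for transgenic replicate 3. All 1832 probe sets above 8 did not follow this pattern, averaging -0.10 for wild type replicate 1 and 0.06 for transgenic replicate 3.

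**Figure D3:**
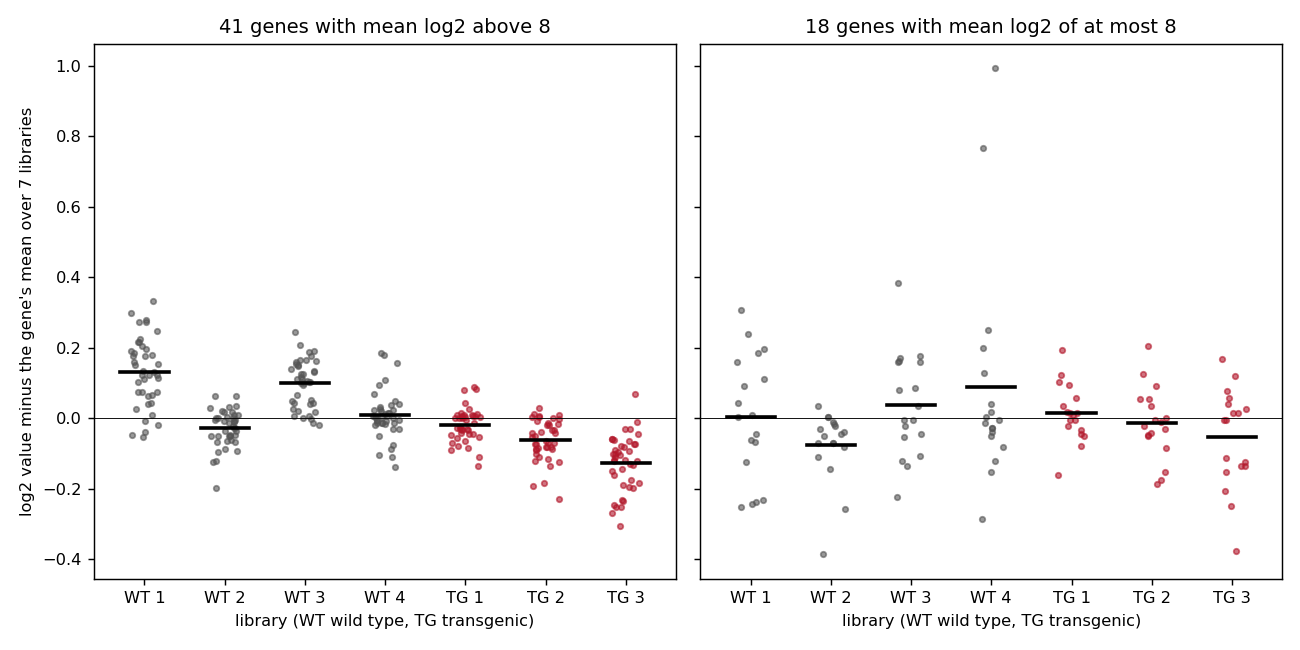
Each point is the log2 value of 1 ribosomal protein gene in 1 library minus that gene's mean over the 7 libraries, for 41 genes with mean above 8 (left) and 18 others (right). Black bars are means over genes: on the left they fall from 0.13 in wild type replicate 1 to -0.13 in transgenic replicate 3, with wild type replicate 2 (-0.03) beside the transgenic libraries.

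The size of the difference depended on which wild type libraries were used. Against wild type replicate 2 alone, where the epididymal list was lowest, the median difference of the 59 genes was -0.04, with 40 lower and 19 higher. Of the 41 genes above 8, 33 were lower and the median was -0.05. Rps4x differed by -0.12, Rpl8 by -0.10 and Rps21 by -0.13 in that comparison, while Rpl38 turned to 0.03, Rpl22 to 0.04, Rplp1 to 0.11 and Rpsa, the laminin receptor protein of the small subunit, to 0.06. This comparison holds a single control library. The count of 6 genes lower at an unadjusted p under 0.05 depended on single libraries too. It was 0 without transgenic replicate 3 (1.73% of all probe sets), 1 without transgenic replicate 2 (1.74%) and 1 without wild type replicate 3 (1.53%). It was 2 without wild type replicate 1 (2.17%), 7 without transgenic replicate 1 (2.67%), 8 without wild type replicate 4 (4.14%) and 13 without wild type replicate 2 (4.49%). Without wild type replicate 2, 91 of all probe sets passed limma's test after adjustment, 0 of them ribosomal protein genes. With the mean of each gene's probe sets the count of genes lower at that unadjusted p was 4, against 2.92% of all 19938 genes. With array weights it was 25, against 8.15% of all probe sets. The smallest limma adjusted p of a ribosomal protein gene was then 0.191. With arrays shifted to a common median the count was 0, against 2.05% of all probe sets. The median difference of the 59 genes was then -0.07, against 0.05 over all probe sets.

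Marker lists moved with the libraries as well. The macrophage list held 10 genes under 11 symbols, since Emr1 is an older symbol of Adgre1, and all 10 were measured. These genes averaged 8.83 and 8.81 in wild type replicates 1 and 3, where ribosomal protein genes were highest. In wild type replicates 2 and 4 they averaged 7.93 and 7.19. With the transgene they averaged 7.53 to 8.01. Not all of them followed the list mean. The transgenic mean was lower for 9 of the 10, with Mrc1 at -0.04 and Csf1r at -0.14, and higher for 1, Cd163. That gene read 7.63, 8.66, 8.11 and 8.24 in wild type replicates 1 to 4 and 8.99 to 9.10 in transgenic fat. The smooth muscle and epididymal lists were highest in wild type replicate 4, where ribosomal protein genes averaged 0.01. The adipocyte list was lowest in wild type replicates 1 and 3 and highest in transgenic replicate 3, the library in which the ribosomal protein genes were lowest. Lists of B cells (9 of 10 genes, 3.52 to 3.79 in wild type and 3.65 to 3.88 in transgenic fat) and T cells (8 of 10, 3.20 to 3.64 and 3.36 to 3.57) had overlapping ranges in both genotypes. The 2 measured genes of the 6 on the erythroid list averaged 4.71 to 4.79 in wild type fat and 4.85 to 5.42 in transgenic fat. Alas2 made most of this, at 5.82 to 6.26 in wild type and 6.28 to 7.32 in transgenic fat, while Slc4a1 differed by 0.04. The part of these cell types in the ribosomal protein difference was not tested.

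**Figure D4:**
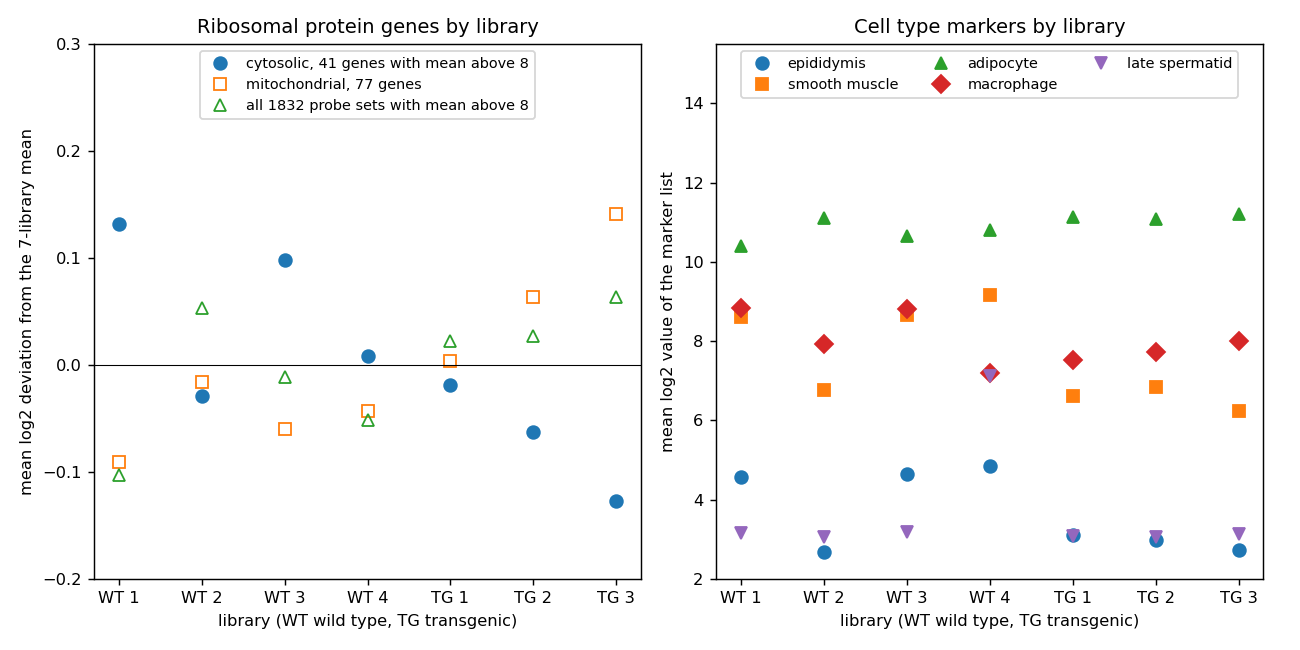
Left, mean log2 deviation from the 7-library mean by library for the 41 cytosolic ribosomal protein genes above 8, 77 mitochondrial ribosomal protein genes and all 1832 probe sets above 8. Right, mean log2 value of 5 marker lists: the means of the epididymal list, which 3 of its 11 genes set, and of the smooth muscle list are higher in wild type replicates 1, 3 and 4, and that of late spermatid genes in wild type replicate 4 (7.11).

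Further probe sets of the same genes showed the direction of the chosen ones. Of the 156 other probe sets, 154 had a lower transgenic mean, with a median difference of -0.11. In 36 of the 39 genes with several probe sets, all of them were lower. The exceptions were Rplp0 and Rpsa, whose probe sets disagreed in sign, and Rps4l, with both higher. These rows are not independent measurements, since 19 of the 215 held the same values as another row, and probes can bind copies from several loci. A further 233 rows carry a ribosomal protein symbol along with other symbols, often pseudogenes, and stay outside the definition. Of these 226 were lower, with a median difference of -0.08.

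The paralogs differed among themselves. The 6 symbols ending in l, Rpl3l, Rpl10l, Rpl32l, Rpl39l, Rps4l and Rps27l, had a median difference of -0.01, with 4 lower and 2 higher. Rpl10l, a testis form of Rpl10 encoded by a retrogene, reached 4.31 in wild type replicate 4, while the other 6 libraries lay between 3.31 and 3.51. Rpl39l, the testis form of Rpl39, read 3.15 in wild type replicate 4 and 1.92 to 2.08 elsewhere. Both were therefore high in the same single library, and their differences of -0.21 (SE 0.24) and -0.27 (SE 0.31) became 0.02 and 0.02 without it. Rpl10 itself read 12.21 to 12.36 in wild type and 12.14 to 12.27 in transgenic fat, with wild type replicate 4 inside the range of the others. A list of 12 late spermatid genes, added after the values were seen, averaged 7.11 in wild type replicate 4, with 3.05 to 3.18 for the other 6. All 12, among them the protamines Prm1 (8.65) and Prm2 (9.76), had their highest value there.

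**Figure D5:**
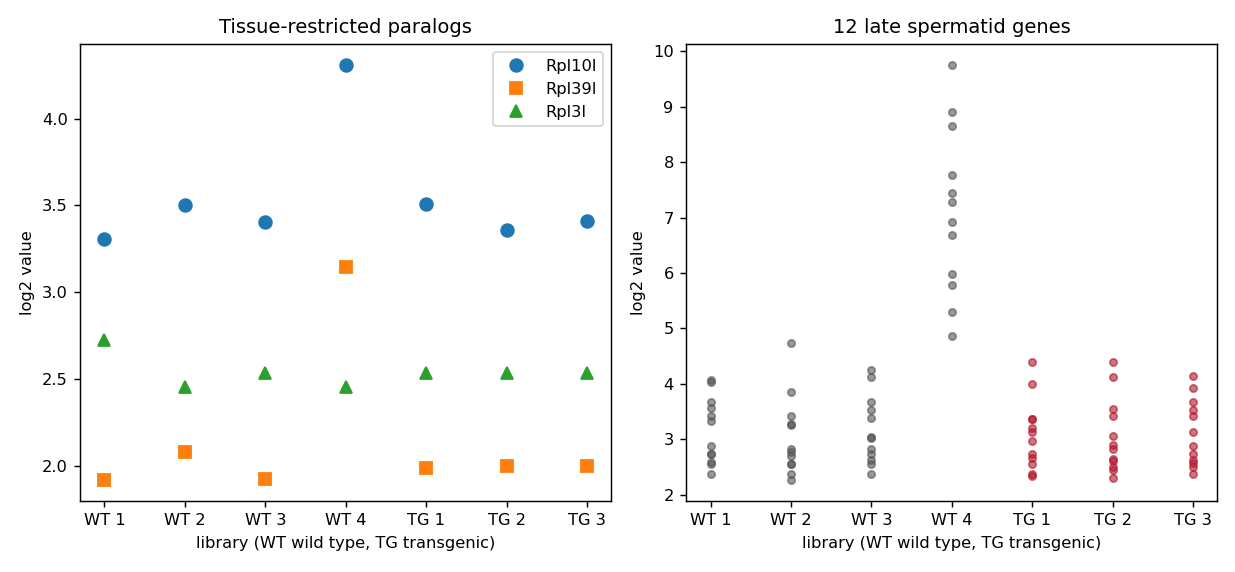
Log2 values by library of Rpl10l, Rpl39l and Rpl3l (left) and of 12 late spermatid genes (right). Rpl10l (4.31) and Rpl39l (3.15) are high in wild type replicate 4, the library in which all 12 spermatid genes have their highest value.

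Of the other paralogs, Rpl3l, the form of Rpl3 found in heart and skeletal muscle, read 2.46 to 2.72 in wild type and 2.54 in all 3 transgenic libraries to 2 decimals, and with Rpl39l it lay among the dimmest 20% of probe sets. Rps27l, a p53-responsive relative of Rps27, read 6.33 to 6.74 in wild type and 6.59 to 6.67 in transgenic fat, a difference of 0.09 (SE 0.10). Rps4l ranged from 5.72 to 6.35 in wild type and between 6.11 and 6.31 in transgenic fat, a difference of 0.14 (SE 0.15). Rpl32l differed by -0.01 (SE 0.07).

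Variation among libraries was otherwise low. The median SD over the 7 libraries was 0.11 for the 41 genes above 8 and 0.16 for all 1832 probe sets above 8, and 37 of the 41 lay below the latter value. Rpl39l (0.44), Rpl10l (0.35), Rpl22 (0.22), Rps4l (0.21) and Rpl14 (0.20) varied most, all with means below 8. Rpl26 (0.04), Rpl24 (0.05) and Rps2 (0.05) varied least. Of common reference genes, Rplp0 had an SD of 0.08 and Rps18 of 0.10. Rps18 read 11.16, 10.98, 11.18 and 11.07 in wild type and 11.05, 10.98 and 10.92 in transgenic fat, a difference of -0.12 (SE 0.06).

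Other genes of translation did not share one direction, and 0 of them passed limma's test in any list. Of 3 measured ribosomal proteins outside the symbol rule, all had lower transgenic means, with Rps3a1 at -0.17 and Fau, the precursor of Rps30, at -0.11, and against wild type replicate 2 alone both were higher, by 0.07 and 0.05. Of 9 other transcripts listed as TOP mRNAs, 8 were lower, with a median difference of -0.09. The lowest p-values were those of Npm1, the nucleolar chaperone nucleophosmin, at -0.29 (SE 0.09), and Tpt1, the abundant translationally controlled tumour protein, at -0.20 (SE 0.08). Tmem97, whose place in that list is doubtful, was among the 8 and read 7.45 in wild type replicate 4 against 5.28 to 6.15 elsewhere.

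Translation factors had medians near 0. Of 9 elongation genes 5 were higher and 4 lower (median 0.00091), with Eef1d at -0.10 and Eef1b2 at -0.08. Of 11 subunits of eIF3, the scaffold of initiation, 5 were higher and 6 lower (median -0.02), with Eif3f at -0.13 and Eif3l at 0.12. Of 22 other initiation factors 10 were higher and 12 lower (median -0.02). Eif2b1, a subunit of the exchange factor that is the target of the integrated stress response, differed by 0.35 (SE 0.09), and Eif1ax by -0.18 (SE 0.06). Neither passed, with a limma adjusted p = 0.622 for both.

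Ribosome production genes were split as well. Of 52 assembly factors 23 were higher and 29 lower, with a median difference of -0.02. Nop58, a core protein of box C/D snoRNPs, differed by -0.40 (SE 0.12), and Dkc1, the pseudouridine synthase of box H/ACA snoRNPs, by 0.34 (SE 0.11). Of 15 genes of RNA polymerase I and its factors 6 were higher and 9 lower (median -0.02), with Taf1c at 0.16 and Taf1a at -0.49, which was -0.32 without wild type replicate 4. In a list of snoRNA host genes with 4 measured, 3 were higher and 1 lower (median 0.03). Snhg5 differed by 0.08, and Rmrp, which is the RNA of RNase MRP and no host gene, by -0.16. Among 17 genes of TOP and S6 kinase control, 9 were higher and 8 lower (median 0.05). Tia1, which can bind and repress TOP mRNAs, differed by -0.31 (SE 0.08), and Cnbp, which binds them too, by 0.13 (SE 0.04), neither passing (limma adjusted p = 0.622 for both).

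Mitochondrial ribosomal proteins, made in the cytosol for the separate ribosome of the organelle, stood on the other side. The transgenic mean was higher for 66 of 77 genes and lower for 11, their median difference was 0.11, and 0 passed. By library they averaged -0.09, -0.02, -0.06 and -0.04 in wild type replicates 1 to 4 and 0.0040, 0.06 and 0.14 in transgenic replicates 1 to 3, so that the library with the lowest cytosolic values had the highest mitochondrial ones. Against wild type replicate 2 alone their median difference was 0.07, with 58 of 77 higher. The difference between these lists was not tested.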

How the data were processed

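RNA of epididymal fat from 4 wild type and 3 aP2-XBP1 transgenic samples was hybridised to 1 array each, from 100 ng of total RNA with an RNA integrity number above 8.0, per the labels' protocols. The authors deposited 1 table of log2 values for 35556 probe sets, made with RMA per the submitters' processing notes. Its version, the probe set definition and the genome build are not stated there. RMA brings arrays to a common distribution, so a shift of all genes would not be seen. All 7 columns were used and 0 were left out.

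The platform table pairs 21789 probe sets with 1 gene symbol, 1621 with several and 12146 with none or not listed; all 59 ribosomal protein genes matched RefSeq by Entrez identifier. Differences were fitted on all 21789 in R 4.3.3 by two-sided tests of limma 3.58.1 (lmFit, eBayes) on genotype alone, with Benjamini-Hochberg adjustment at 0.05. Lists were described by counts and medians, each gene by its brightest probe set. The members, lists and tests were chosen with earlier results of these data known. The naming rule took the 8 largest differences each way, the 5 highest and 5 lowest means, the 5 largest and 3 smallest SDs, paralogs ending in l with their parents, Rps6, Rplp0, Rpl13a and Rps18, Xbp1, and 2 genes of smallest p per list. The fit was tested on simulated data. Alternatives were a replicate block, quantile normalization again, a common median, no dimmest 20%, all rows, 1 probe set per gene, the mean of a gene's probe sets, trend with robust prior, array weights (statmod 1.5.0), each library left out, only wild type replicate 2 as control and an adjusted p of 0.1. Figures used Python 3.11.15, pandas 2.3.3 and matplotlib 3.10.9.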

Additional observations from a re-analysis of the deposited data

Results flagged for a closer look

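Of 57 genes named and checked over the 4 wild type libraries, 6 had 1 library far from the other 3. For normally distributed values chance gives about 1 in 20 for each. That rate need not hold here, since many of these genes were chosen for their differences or SDs and some values are tied. Rpl39l read 3.15 in wild type replicate 4 against 1.92 to 2.08, and Rps15a 5.45 in wild type replicate 4 against 5.77 to 5.83. Rpl5 read 10.53 in wild type replicate 3 against 10.37 to 10.40, and Rps13 read 6.70 in the same library against 6.54 to 6.55. Rpl26 read 6.36 in wild type replicate 1 against 6.29 in the others. Tia1 read 6.52 in wild type replicate 1 against 6.71 to 6.75.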

How the results depend on the processing

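Under all 18 alternatives 0 ribosomal protein genes and 0 genes of the pathway lists passed limma's test. Without each library in turn the median difference of the 59 genes ran from -0.139 to -0.085 and the count with a higher transgenic mean from 8 to 10. Shifting the arrays to a common median gave 13 genes higher, where all probe sets went from 46.4% to 32.9% lower. The median difference of the 59 genes was then -0.070, and 0 of them were lower at an unadjusted limma p under 0.05. With only wild type replicate 2 as control, 19 were higher and the median difference was -0.037. In that comparison the sign turned for Rpl10 (0.012), Rpl22 (0.035), Rpl38 (0.029), Rpl3l (0.078), Rpl7a (0.016), Rplp1 (0.107), Rpsa (0.061), Fau (0.046) and Rps3a1 (0.066). Under a common median it turned for Rpl14 (0.0061), Rpl24 (0.033), Rpl32l (0.028) and Rpl3l (0.032), under repeated quantile normalization for Rpl32l (0.029), and with array weights for Rpl14 (0.021), Rps19 (-0.050) and Rps27l (-0.013). The replicate block turned Rpl10l (0.020), Rpl14 (0.026), Rpl39l (0.021), Rplp0 (-0.0040) and Rps15a (-0.011). Since wild type replicate 4 has no partner, the block gives the differences found without that library. Deviations of same-numbered libraries from their group means correlated at -0.139, -0.095 and 0.058, which gives no sign of pairing by number. With so few pairs, and libraries that differ in epididymal and smooth muscle genes, these values cannot exclude it. The median difference under the block was -0.120. Leaving out libraries turned the sign of Rpl24 (-0.045 to 0.032), Rplp0 (-0.012 to 0.065), Rpl32l (-0.057 to 0.038), Rpl14 (-0.141 to 0.144), Rpl26 (-0.015 to 0.034), Rpl3l (-0.037 to 0.052), Rps19 (-0.028 to 0.114), Rpl10l (-0.315 to 0.020), Rpl39l (-0.387 to 0.021), Rps15a (-0.011 to 0.115) and Rpsa (-0.115 to 0.031). The cause was not tested in any of these. With 7 arrays, differences of about 0.1 in single genes are at the limit of precision, and Rpl3l and Rpl39l are among the dimmest 20% of probe sets.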
